A study of Homo sapiens with 9 samples.

Results

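The genes described here are 59 protein-coding genes of the long arm of human chromosome 17, bands q11 to q21, from TAOK1 at one end to UBTF at the other. They were picked by symbol from a table of 20637 genes, with earlier results of these data in view, because most of them had lower values in daunorubicin-resistant HL-60 cells. HL-60 is an established line of acute myeloid leukaemia with promyelocytic features. RNA was sequenced from 3 lines with 3 biological replicates each: parental HL-60, an Ara-C-resistant line (HRA) kept in 100 nM Ara-C, and a daunorubicin-resistant line (HRD) kept in 30 nM daunorubicin. Ara-C (cytarabine) is a nucleoside analogue and daunorubicin (DNR) an anthracycline that traps topoisomerase II on DNA. The labels name no drug for parental cells, and each resistance is represented by 1 line, so resistance, the drug in the medium and the history of that line cannot be told apart. Members were chosen from their HRD values, so HRD values of members are a description with no test. HRA against parental was not used to choose them and is tested, although it shares the parental libraries.

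Genes of one chromosome arm share little beyond position, so the members belong to many pathways. They include the polycomb genes SUZ12, EZH1 and PCGF2, whose products act in complexes that repress genes, and the RAS inhibitor NF1. Others are the neighbouring transcription factor genes STAT5A, STAT5B and STAT3, which carry cytokine signals to the nucleus, and RARA, the retinoic acid receptor that is fused to PML in acute promyelocytic leukaemia. Copy number of the segment was not analysed here.

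Library depth ran from 20822709 to 66563328 recovered reads. Promyelocyte markers were expressed in every library, with MPO, myeloperoxidase, between 199686 and 314199 normalized reads, while ELANE, neutrophil elastase, had 6 reads in parental cells, 4 in HRA and 2 in HRD. CTSG, cathepsin G, and PRTN3, proteinase 3, fell in HRA (-1.39 ± 0.09 and -1.64 ± 0.36 on the log2 scale), and CTSG also fell in HRD (-0.69 ± 0.09). The list was split in HRA, with 2 called higher and 2 lower of 8 tested and a median of 0.10. CD33, a myeloid surface receptor, had 0.30 ± 0.08 in HRA, and SPI1, the transcription factor PU.1, had 0.51 ± 0.15. In HRD, CTSG was the 1 called of 8, and the median was -0.04. The part of this shift in the results below was not tested. Among markers of other cells, CD3E of T cells and COL1A1 of fibroblasts had at most 3 reads in a group, and HBB, EPCAM and GP9 were not analysed here. In bulk RNA, fewer cells that express a gene and less of its RNA per cell cannot be told apart.

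By the calls given below, the label "lowered in HRD" describes the members from CRLF3 to UBTF except EVI2A and the untested MYO1D. It does not describe the first 7 members, TAOK1 to GOSR1. HRD values chose the members, so this is a description and no test of the label. Of the 59 members, 58 had a value of at least 10 normalized reads in at least 3 of the 9 libraries and entered the fit. MYO1D, an unconventional myosin, was left out with 2 reads in parental cells, 1 in HRA and 0 in HRD. Among the 58, 50 were called lower and 2 higher in HRD than in parental cells, where a call is a Benjamini-Hochberg adjusted p below 0.05 in limma over 12569 genes. Of all tested genes, 22.8% were called in this comparison, 12% lower and 10.7% higher, and nothing is read from the member count because this comparison chose the members. The median log2 fold change, HRD against parental, was -0.86 over the 58 members and 0.01 over all tested genes. Over the 51 tested members from CRLF3 to UBTF it was -0.90, with a range from -1.96 to -0.27, and the median mean level in HRD was 53.7% of the parental mean. In 49 of these 51 all 3 HRD libraries lay below all 3 parental libraries, as did 18.2% of all tested genes. The exceptions were EVI2A and ACLY.

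**Figure D1:**
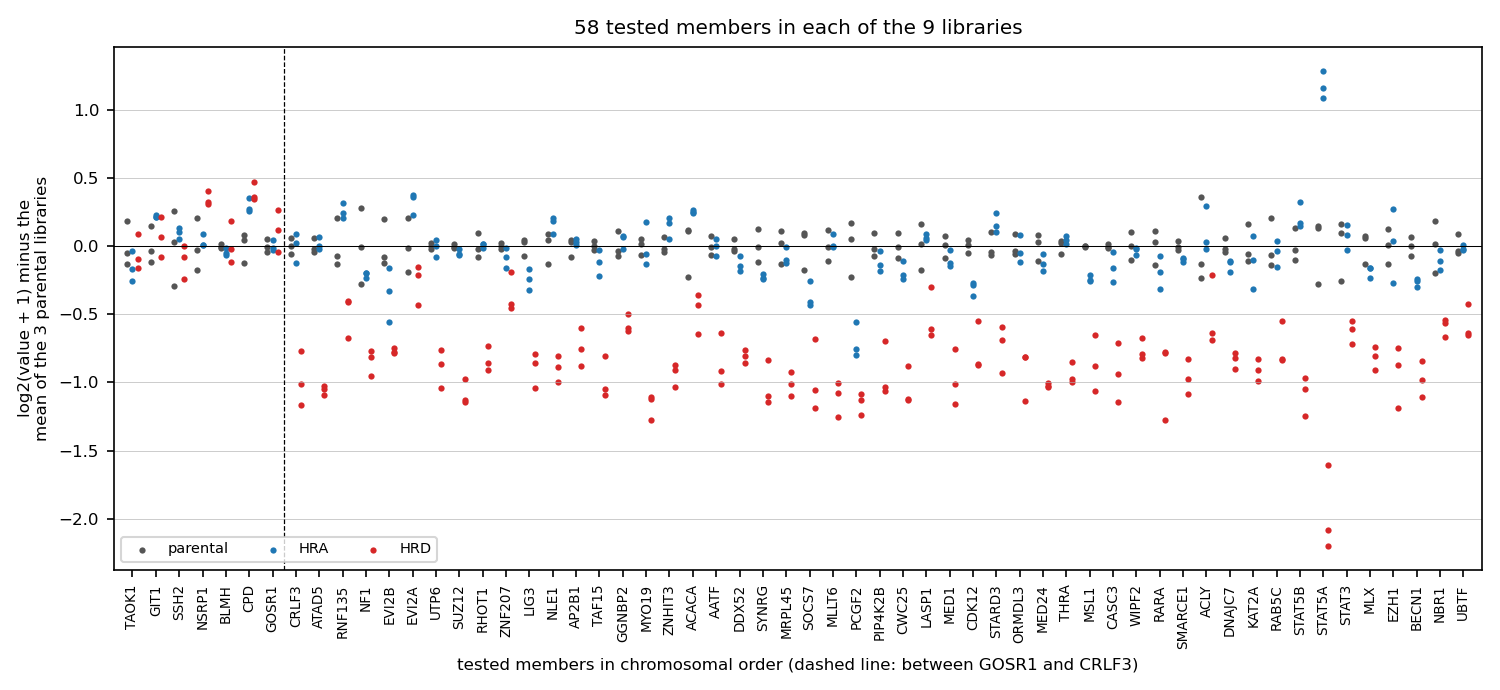
The 58 tested members in chromosomal order (x axis), with each of the 9 libraries as a point at log2(value + 1) minus the mean of the 3 parental libraries (y axis). Left of the dashed line, between GOSR1 and CRLF3, the groups overlap in most members, and right of it the HRD points lie below the parental points in 49 of 51 members, while HRA points scatter around 0 and those of STAT5A lie above 1.

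The lowering was present in each HRD library. The median over members of log2(value + 1) minus the parental mean was -0.76, -0.85 and -0.89 in the 3 HRD libraries. It was -0.02, -0.07 and -0.02 in the HRA libraries, and it lay between -0.04 and 0.03 in the parental libraries. Against HRA, the HRD median over the 58 members was -0.74, with 51 members called lower and 1 higher. Of all tested genes, 30.1% were called there, 16.2% lower and 13.9% higher. All 3 HRD libraries lay below all 3 HRA libraries in each of the 51 tested members from CRLF3 to UBTF, against 24.2% of all tested genes. They lay above all HRA libraries in 1 member, NSRP1, and in 22.8% of all tested genes. HRA values of these members are thus not lowered as a group, and the HRD values stand below both other lines.

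TAOK1, a kinase at the start of the interval, had 3096, 3261 and 3846 normalized reads in parental cells, 3021, 2842 and 3299 in HRA and 3597, 3023 and 3169 in HRD. The groups overlapped, and the log2 fold change in HRD was -0.06 ± 0.10 (standard error of the fit, as in all such values below). GOSR1, a Golgi SNARE and the last of the 7, had 2674, 2734 and 2846 in parental cells and 3305, 2983 and 2675 in HRD, a difference of 0.11 ± 0.09. These 7 members ranged in HRD from -0.11 (SSH2, a cofilin phosphatase) to 0.39 (CPD, carboxypeptidase D), with a median of 0.07. None was called lower.

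The 2 members called higher in HRD were both among the 7. NSRP1, a nuclear speckle protein in splicing, had 1428, 1578 and 1862 normalized reads in parental cells and 1994, 2014 and 2137 in HRD (0.34 ± 0.10). CPD had 5043, 5676 and 5844 in parental cells, 6657, 7033 and 6592 in HRA and 7634, 7079.9 and 7003 in HRD (0.39 ± 0.08). All 3 HRD libraries were above all 3 parental libraries for both genes.

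CRLF3, a cytokine receptor-like protein and the next member after GOSR1, had 1196, 1147 and 1246 normalized reads in parental cells, 1269.7, 1098 and 1217 in HRA and 700.0, 594 and 532 in HRD. Its HRD libraries lay far below the rest (-0.98 ± 0.11), so the step from 0.11 to -0.98 falls between 2 neighbouring tested members. At the other end UBTF, an RNA polymerase I transcription factor, had 6944, 6342 and 6288 in parental cells and 4864, 4144 and 4188 in HRD. That difference, -0.57 ± 0.08, was smaller than the median of the members. Between these ends, the HRD median was -0.94 over the 17 members from LIG3 to CWC25 and -0.93 over the 12 from LASP1 to SMARCE1. It was -0.83 over the 12 from ACLY to UBTF. Every one of these 41, chosen by HRD values, was called lower, as were 12% of all tested genes.

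**Figure D2:**
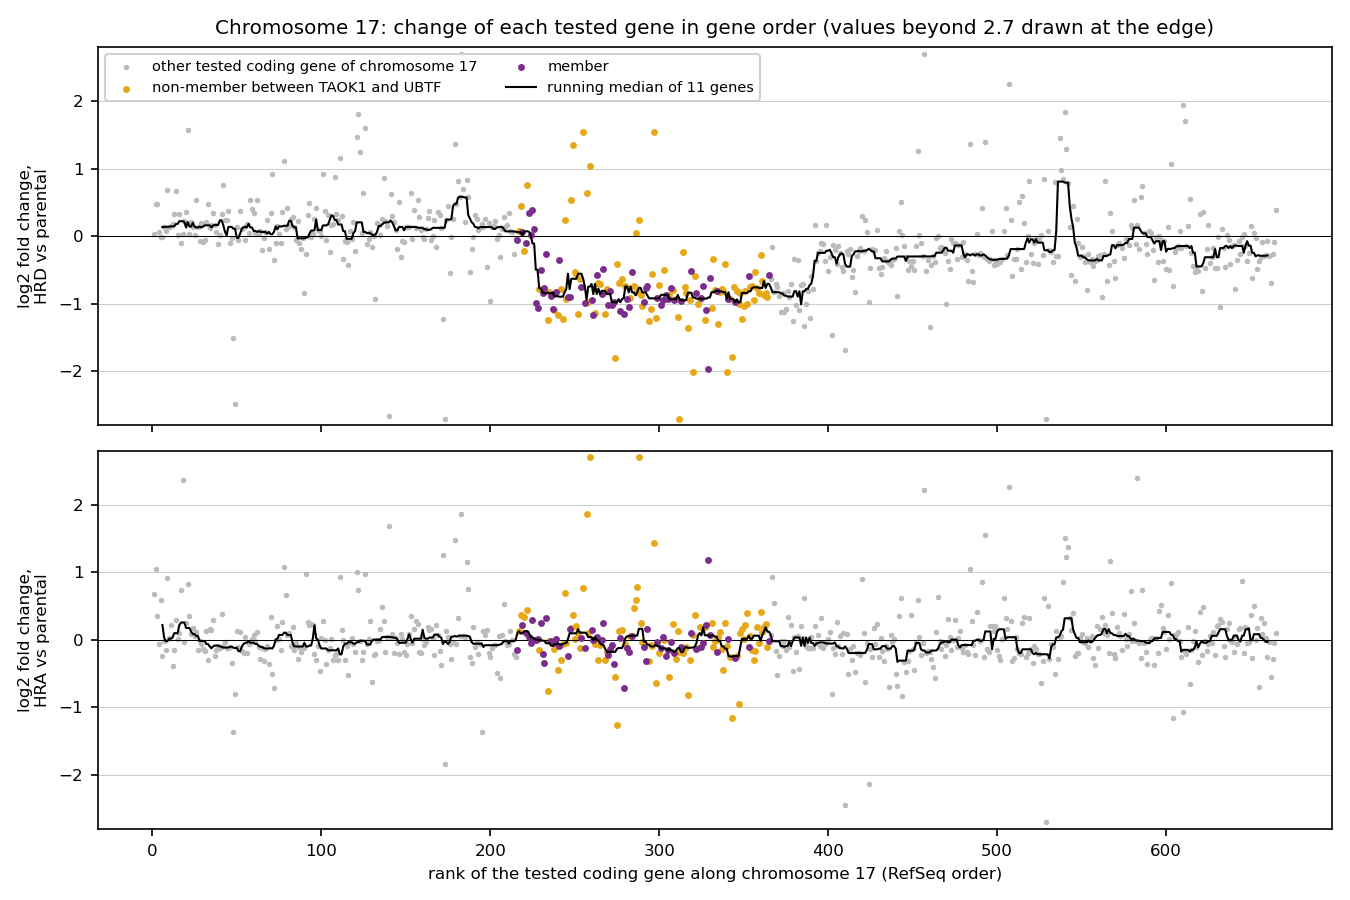
Log2 fold change of each of the 665 tested protein-coding genes of chromosome 17 in RefSeq gene order (x axis, rank), for HRD against parental (top) and HRA against parental (bottom), with the running median of 11 genes as a line. The HRD line drops just after GOSR1 to about -0.84 and returns some way past UBTF, and the HRA line has no such drop.

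The members are a selection from a longer stretch. The interval from TAOK1 to UBTF holds 150 tested protein-coding genes, of which 92 are not members. Of these 92, 68 were called lower and 4 higher in HRD, with a median log2 fold change of -0.82. Of all tested genes, 12% were called lower and 10.7% higher in HRD. The interval was set by members chosen from HRD values, so the HRD counts in and around it are a description. In HRA, 6 of the 92 were called higher and 3 lower, with a median of -0.01, against 9.13% higher and 6.1% lower over all tested genes. These 9 calls became 4 without parental replicate 3, HRA replicate 1 or HRA replicate 2. The 25 tested coding genes before TAOK1 had an HRD median of 0.13, with 1 called higher and 1 lower (0 without parental replicate 1 or HRD replicate 2, and 1 without parental replicate 3), and PHF12, MYO18A and NUFIP2, the nearest, had 0.06, -0.26 and -0.03. After UBTF the low values went on: of the next 25 genes 20 were called lower and 0 higher, with a median of -0.83.

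The running median of 11 genes in HRD stayed below -0.4 over a run that starts at CRLF3 and reaches past UBTF. These 165 tested coding genes had a median of -0.84 and held 139 called lower and 3 higher. Of all tested genes, 12% were called lower and 10.7% higher in that comparison. Elsewhere on the chromosome, short runs of at most 4 genes passed the same limit, among them HOXB9 to UBE2Z and TEPSIN to BAHCC1. The window and the limit were chosen after the values were seen. In HRA the 165 genes had a median of -0.05.

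Single genes in the stretch departed from its level. CCR7, a chemokine receptor and no member, had 340.1, 293 and 318 normalized reads in parental cells and 31.8, 33.1 and 21.4 in HRD (-3.44 ± 0.19), the lowest change among non-members whose larger group mean reached 100. ARHGAP23 (-1.80 ± 0.17) and P3H4 (-1.36 ± 0.25) followed. SLFN5, a Schlafen family gene, went the other way with 35.9, 121 and 82.4 in parental cells and 149, 244 and 169 in HRD (1.35 ± 0.44). Its difference was 0.86 without parental replicate 1. Its call was lost under 9 of the 18 other settings run, among them leaving out parental replicate 1 or 3, HRA replicate 1 or 3, or any HRD replicate, with adjusted p-values up to 0.156. EFCAB5 (0.76 ± 0.24), whose call was lost under 10, lies before CRLF3, and CCL5, a chemokine, had 0.64 in HRD without being called. TOP2A, a topoisomerase II that daunorubicin acts on, lies in the interval. It had 27577, 30142 and 34136 normalized reads in parental cells, 25971, 24054 and 25229 in HRA and 17892, 15305 and 14926 in HRD, a difference of -0.93 ± 0.10 in HRD. ERBB2, a receptor tyrosine kinase, had -1.07 ± 0.27 from few reads. Both lay within the range of the members.

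All 12 members that act in chromatin and transcription were called lower in HRD, with a median of -0.97 and a range from -1.15 to -0.57. The HRD counts by role, here and below, come from the comparison that chose the members, so nothing is read from them. Of all tested genes, 12% were called lower in that comparison. SUZ12, a core subunit of polycomb repressive complex 2 (PRC2), had 7933, 7898 and 8055 normalized reads in parental cells, 7825, 7639 and 7624 in HRA and 4059.6, 3638 and 3597 in HRD (-1.08 ± 0.07, 47.3% of parental). The replicates of each line were close together, and HRD was well apart from both others. EZH1, a catalytic PRC2 subunit, had 932, 845 and 1012 in parental cells, 953, 768 and 1121 in HRA and 507, 407 and 551 in HRD (-0.94 ± 0.15). PCGF2, a subunit of polycomb repressive complex 1, had 266, 323 and 351 in parental cells, 178, 211 and 184 in HRA and 141, 146 and 131 in HRD (-1.15 ± 0.15), and its HRA libraries lay between the other lines.

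The Mediator complex bridges transcription factors and RNA polymerase II. MED1 had 6818, 7603 and 7284 normalized reads in parental cells, 6645, 6537 and 7070.0 in HRA and 4290.2, 3587 and 3238 in HRD (-0.97 ± 0.10). MED24, another subunit, was at -1.02 ± 0.08. CDK12, a kinase of elongating polymerase that sustains long DNA repair genes, had 4823, 5028 and 5156 in parental cells, 4148, 3889 and 4095 in HRA and 3413, 2725 and 2749 in HRD (-0.76 ± 0.09), with HRA again between the other lines.

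SMARCE1, a subunit of SWI/SNF chromatin remodellers, had 7647, 7912 and 7529 normalized reads in parental cells, 7104, 7231 and 7219 in HRA and 4323, 3917 and 3618 in HRD (-0.96 ± 0.08). KAT2A, the acetyltransferase of the SAGA complex, had 2681, 2218 and 2302 in parental cells, 2232, 1922 and 2524 in HRA and 1350.4, 1207 and 1272 in HRD (-0.91 ± 0.11). TAF15, an RNA-binding protein of the FET family, had 34334, 35212 and 33659 in parental cells and 19632, 16121 and 16596 in HRD (-0.98 ± 0.10). For each of these genes the HRD libraries stood below every other library. The remaining genes of the group, MLLT6 (-1.11), MSL1 (-0.86) and UBTF, were lower too.

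**Figure D3:**
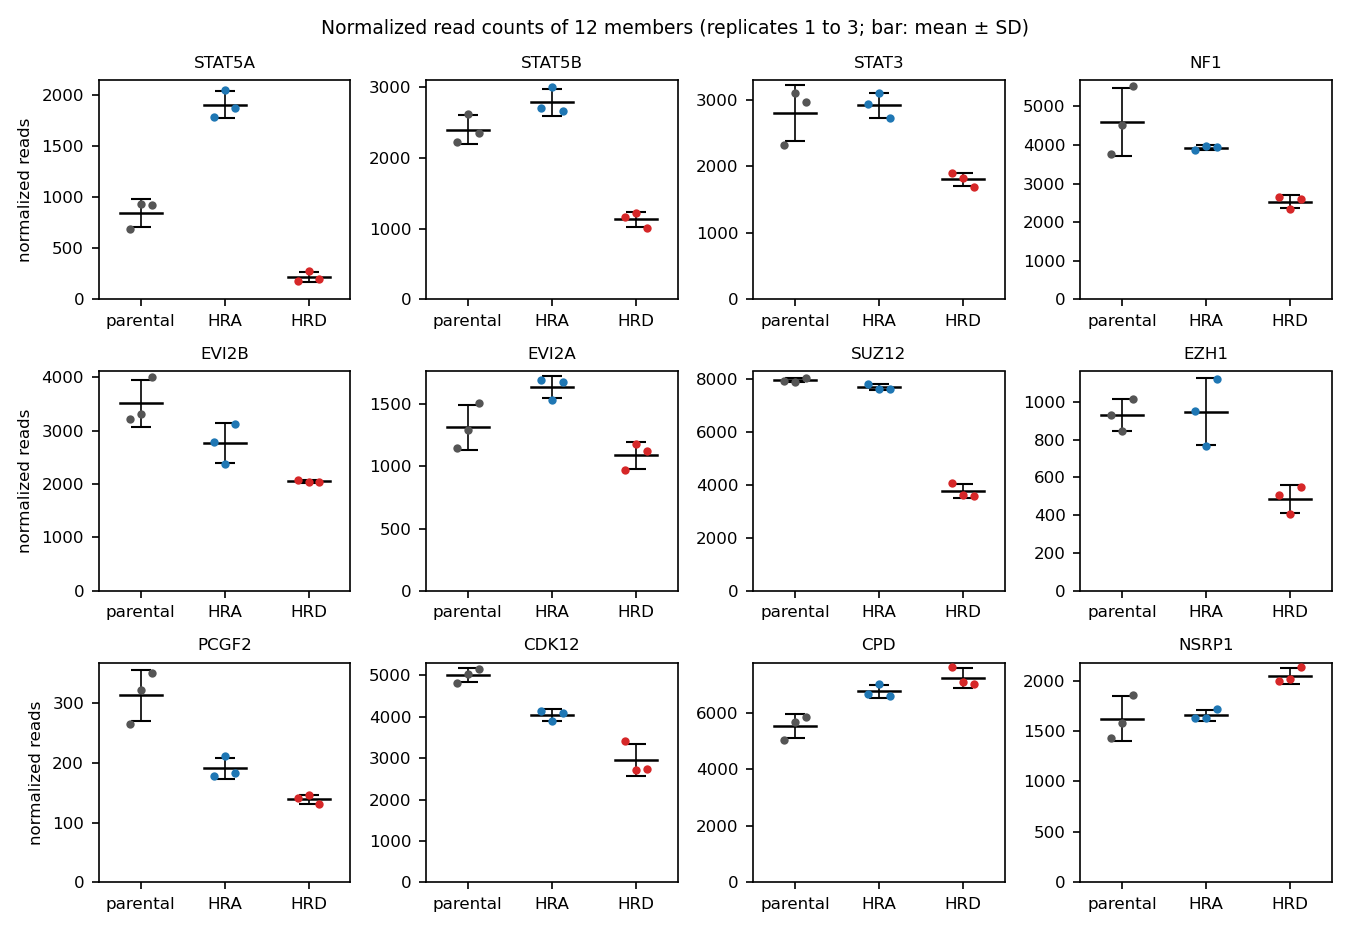
Normalized reads (y axis, from 0) of 12 members in the 3 replicates of parental, HRA and HRD cells, with the mean and SD as bars. STAT5A is highest in HRA and lowest in HRD, SUZ12 is lower in HRD alone, and CPD and NSRP1 are highest in HRD.

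In the group of receptors, signalling and genome maintenance, 14 of 16 members were called lower in HRD, with a median of -0.87. STAT5A had the lowest value of all members. It had 691, 930.0 and 920.3 normalized reads in parental cells, 1783, 2048 and 1873 in HRA and 182, 276 and 198 in HRD. The 3 lines did not overlap, HRD held 25.8% of the parental mean (-1.96 ± 0.16), and HRD was -3.14 ± 0.16 from HRA. STAT5B, its paralogue next to it, had 2230.2, 2628 and 2352 in parental cells, 2701, 3005 and 2659.6 in HRA and 1159, 1226 and 1009.9 in HRD (-1.09 ± 0.10). STAT3, the next gene, had 2329.5, 3113 and 2977 in parental cells, 2940.0, 3102 and 2725 in HRA and 1898, 1826 and 1696 in HRD (-0.63 ± 0.11). STAT5A and STAT5B are near-identical over long stretches, so reads could be split between them by the counting. Their gene spans overlap in RefSeq (GRCh38.p14), and whether they do in the annotation used for counting is not given.

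The windows upstream of these 2 genes are shown because the neighbours share the lowering in HRD and differ in HRA. RefSeq (GRCh38.p14) lists STAT5A on the plus strand and STAT5B on the minus strand of chromosome 17, and the 250 bases before each start run 5′ to 3′ below. Capitals mark matches to GGGCGG on either strand, the core of GC boxes. Both windows were also searched on both strands for TTCNNNGAA, the STAT core motif, and for CCAAT, with 0 matches to either.
STAT5A, chr17:42287189-42287438, plus strand: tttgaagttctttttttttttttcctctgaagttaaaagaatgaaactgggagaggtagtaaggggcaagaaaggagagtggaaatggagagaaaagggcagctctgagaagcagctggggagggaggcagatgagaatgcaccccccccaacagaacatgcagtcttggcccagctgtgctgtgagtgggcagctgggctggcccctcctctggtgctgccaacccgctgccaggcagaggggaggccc
STAT5B, chr17:42276392-42276641, minus strand: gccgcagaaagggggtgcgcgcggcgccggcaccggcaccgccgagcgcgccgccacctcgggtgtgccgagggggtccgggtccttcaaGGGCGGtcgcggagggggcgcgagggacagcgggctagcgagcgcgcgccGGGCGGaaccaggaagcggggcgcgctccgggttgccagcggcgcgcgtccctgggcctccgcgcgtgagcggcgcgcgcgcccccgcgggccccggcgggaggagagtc
With the 50 bases after the start included, the STAT5A window had 56.3% GC, 3 CpG dinucleotides and 0 GGGCGG matches. The STAT5B window had 82% GC, 55 CpG and 3 matches, of which 2 lie in the printed bases. Among the 49 tested members with a window of 300 bases in the table, the median GC content was 67%, against 65.3% over 9183 tested coding genes. GGGCGG was in 71.4% of member windows and 70.4% of all, CCAAT in 26.5% and 36.9%, and TTCNNNGAA in 4.08% (2 members) and 6.28%. TATAAA was in 0 member windows and in 5.65% of all. These shares are a description of the windows and carry no test.

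NF1, the GTPase-activating protein that switches RAS off, had 3754, 4524 and 5523 normalized reads in parental cells, 3859, 3962 and 3959.6 in HRA and 2664, 2349.9 and 2589 in HRD (-0.84 ± 0.12). HRD lay below every parental and HRA library, and the parental replicates were widely spread. EVI2B and EVI2A, membrane protein genes inside an NF1 intron on the opposite strand, differed from each other. EVI2B had 3211, 3305 and 4006 in parental cells, 2780.2, 2375 and 3129.9 in HRA and 2074, 2041 and 2029 in HRD (-0.77 ± 0.11). EVI2A had 1145, 1289 and 1503 in parental cells, 1691, 1529 and 1674 in HRA and 967, 1175 and 1123 in HRD, so its HRD and parental libraries overlapped (-0.27 ± 0.11). NF1 also has 12 pseudogene copies by name, and whether counting used the strand is not given in the sources used here, so reads of these nested genes may be shared.

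RARA had 297, 250.3 and 282 normalized reads in parental cells, 242, 262 and 222 in HRA and 113, 159.7 and 160.3 in HRD (-0.95 ± 0.17). THRA, a thyroid hormone receptor that overlaps NR1D1, had 743, 797 and 787 in parental cells, 785, 816 and 798 in HRA and 429, 395 and 388 in HRD (-0.94 ± 0.09). LIG3, a DNA ligase of base excision and mitochondrial repair, had 2142, 2129 and 1974 in parental cells, 1662, 1761 and 1856 in HRA and 1203, 1149 and 1009.9 in HRD (-0.90 ± 0.09). For all 3 genes the HRD libraries lay below every other library. ATAD5, which unloads PCNA from replicated DNA, was at -1.06 ± 0.07, and SOCS7, of the suppressor of cytokine signalling family, at -0.98 ± 0.13. RNF135, a ubiquitin ligase of antiviral signalling, was at -0.50 ± 0.14, and MLX, a partner of glucose-sensing factors, at -0.82 ± 0.08. GGNBP2 was at -0.57 ± 0.08.

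Of 10 members in RNA processing and ribosome formation, 9 were called lower in HRD, with a median of -0.89, and NSRP1 was called higher. CWC25 of the spliceosome (-1.04 ± 0.09), MRPL45 of the mitochondrial ribosome (-1.01 ± 0.08) and ZNHIT3 of snoRNP assembly (-0.94 ± 0.08) had the lowest values. CASC3, a core of the exon junction complex, was at -0.93 ± 0.11. The ribosome biogenesis genes NLE1, UTP6, AATF and DDX52 had -0.90, -0.89, -0.86 and -0.81. ZNF207, a spindle checkpoint and splicing protein, had 10245, 10111 and 9939 normalized reads in parental cells and 8872, 7512 and 7357 in HRD. All its HRD libraries were below parental, but its difference of -0.36 ± 0.09 was less than that of the other 8.

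All 5 lipid genes were called lower in HRD, with a median of -0.74. ACLY, which makes cytosolic acetyl-CoA, had 12112, 18318 and 13020.2 normalized reads in parental cells, 14572, 17440.1 and 14008 in HRA and 9157, 12295 and 8830.2 in HRD (-0.51 ± 0.17). Replicate 2 was the highest of each line, and the HRD value of replicate 2 exceeded the lowest parental value. ACACA, the acetyl-CoA carboxylase that starts fatty acid synthesis, had 3760.0, 4746 and 4772 in parental cells, 5197, 5220.4 and 5297 in HRA and 3264, 2808 and 3436 in HRD (-0.48 ± 0.11). PIP4K2B, a phosphoinositide kinase, was at -0.93 ± 0.10, ORMDL3, a regulator of sphingolipid synthesis, at -0.92 ± 0.10, and STARD3, a sterol transporter of late endosomes, at -0.74 ± 0.11.

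Among 7 genes of membrane traffic and autophagy, 5 were called lower and the others, GIT1 and GOSR1, lie before CRLF3. BECN1, a subunit of the lipid kinase complex that starts autophagosomes, had 2881, 2761 and 2624 normalized reads in parental cells, 2326, 2233 and 2303 in HRA and 1390.1, 1536 and 1276 in HRD (-0.98 ± 0.08). NBR1, an autophagy cargo receptor, had 1053, 1221 and 1369.9 in parental cells, 1120.3, 1185 and 1067 in HRA and 831, 818 and 759 in HRD (-0.59 ± 0.11). SYNRG (-1.03 ± 0.10), AP2B1 (-0.75 ± 0.08) and RAB5C (-0.74 ± 0.11), which act in clathrin-coated and early endocytic transport, were lower as well. In the cytoskeletal and mitochondrial group MYO19, a myosin that moves mitochondria, had 2981, 2826 and 3059 normalized reads in parental cells, 2830.5, 2702 and 3343 in HRA and 1357, 1220.2 and 1370.0 in HRD (-1.17 ± 0.09). That was the second lowest value of all members, and MYO19 overlaps ZNHIT3 and PIGW. RHOT1, the mitochondrial anchor of the same transport, was at -0.83 ± 0.08, WIPF2, a WASP-interacting protein, at -0.76 ± 0.09 and LASP1, an actin-binding protein, at -0.52 ± 0.11. In protein handling, the chaperone DNAJC7 was at -0.83 ± 0.07, and BLMH, bleomycin hydrolase, which lies before CRLF3, was at 0.01 ± 0.08.

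The calls of members in HRD left a narrow margin at ACLY (-0.51) and RNF135 (-0.50), called lower with the largest adjusted p-values. On the other side, EVI2A (-0.27) and GOSR1 (0.11) were not called. No test is attached to these values.

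HRA against parental asked whether the Ara-C-resistant line shared the lowering. It did not show it as a group: 2 members were called higher and 2 lower of 58, with a median log2 fold change of -0.03. Over all 12569 tested genes, 9.13% were called higher and 6.1% lower, with a median of -0.01. A further 54 members were not called. All 3 HRA libraries lay below all parental libraries in 15 members and above them in 8, against 18.7% and 19.3% of all tested genes.

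STAT5A rose in HRA by 1.18 ± 0.16 on the log2 scale (adjusted p = 0.00106), about 2.26-fold, and was higher in 3 of 3 libraries. It thus rose in one resistant line and was the lowest member in the other. STAT5B had 0.22 ± 0.10 (adjusted p = 0.159) and STAT3 0.07 ± 0.11 (adjusted p = 0.714). CPD rose by 0.29 ± 0.08 (adjusted p = 0.0296), and it was also higher in HRD.

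PCGF2 fell in HRA (-0.70 ± 0.15, adjusted p = 0.00939), with all 3 libraries below parental. CDK12 fell less (-0.31 ± 0.09, adjusted p = 0.0449). The HRD values of both were lower still. STAT5A was called under all 18 other settings run, PCGF2 under 16, CPD under 12 and CDK12 under 9. The 4 calls became 1 without HRA replicate 1 or without replicate 2 of every line (STAT5A in both), 2 without HRA replicate 2 or parental replicate 2 (STAT5A and PCGF2), and 7 without HRD replicate 1. SUZ12 (-0.05 ± 0.07), NF1 (-0.21 ± 0.12), EZH1 (0.01 ± 0.15), RARA (-0.19 ± 0.17) and SMARCE1 (-0.10 ± 0.08) did not pass the test in HRA, with adjusted p-values from 0.255 to 0.96.

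Deviations from the group means correlated at 0.22, 0.38 and 0.14 between parental and HRA libraries with the same number. The replicate number was therefore also fitted as a block, over all 9 libraries. The blocked fit called 7 members: CPD, EVI2A and STAT5A higher and EVI2B, PCGF2, CDK12 and BECN1 lower. Of all tested genes it called 22.1%, 12.5% higher and 9.56% lower. EVI2A had 0.32 ± 0.11 (adjusted p = 0.0791 without and 0.0472 with the block), and EVI2B had -0.35 ± 0.11 (adjusted p = 0.0572 and 0.0246). BECN1 had -0.27 ± 0.08 (adjusted p = 0.0538 and 0.0372).

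The partners and targets of members that are encoded elsewhere did not share the lowering. Lists of such genes hold 167 genes outside the interval, of which 150 were tested. In HRD, 16 rose and 13 fell, with a median of 0.04, against 10.7% higher, 12% lower and a median of 0.01 over all tested genes. In HRA, 15 rose and 9 fell, with a median of -0.01, against 9.13% higher and 6.1% lower over all tested genes. In both lines the pooled counts are near these shares. Single lists hold few genes, and some of their counts below depart from these shares. Both comparisons use the parental libraries. The 24 calls in HRA became 9 without HRA replicate 1, 10 without HRA replicate 2 and 15 without parental replicate 2. Without replicate 2 of every line, 10 in HRA and 18 in HRD were called in either direction.

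**Figure D4:**
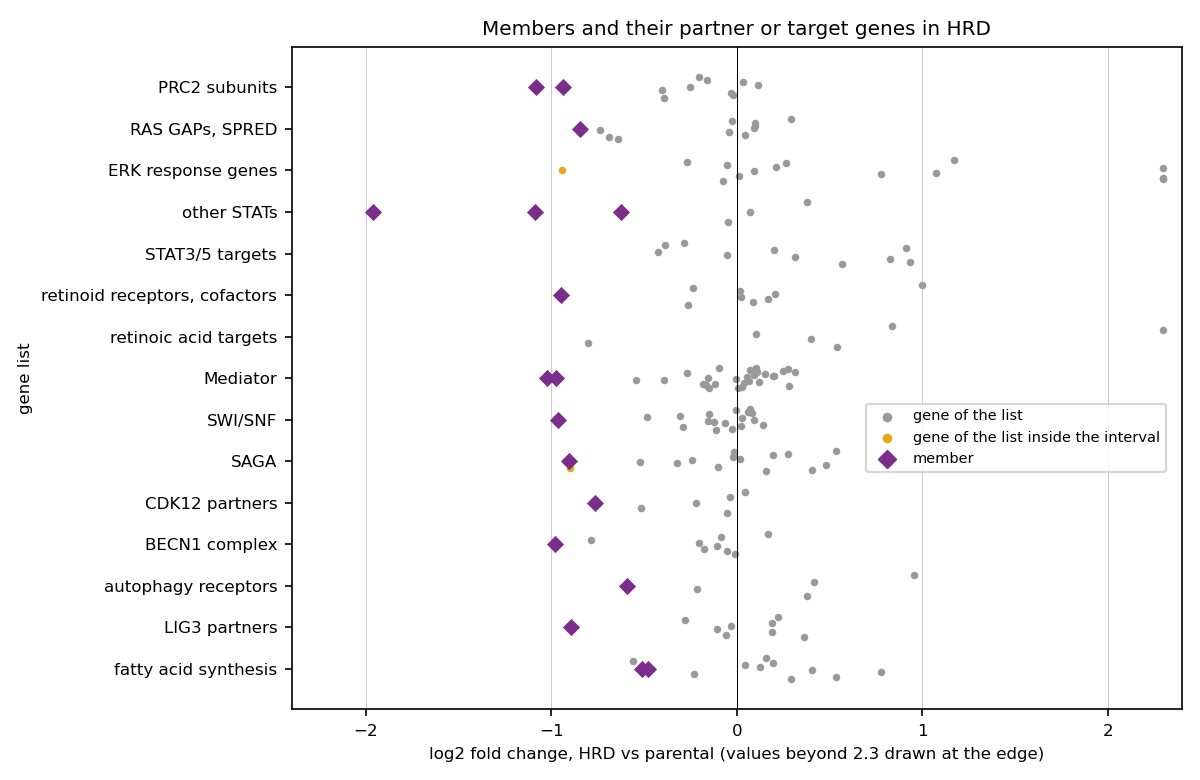
Log2 fold change in HRD against parental (x axis) for each tested gene of the partner and target lists (rows), with the matching members as diamonds. The member diamonds lie between -1.96 and -0.48, while most partner genes lie around 0.

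Of the 9 other PRC2 genes, 2 fell in HRD and 0 rose. PHF19, an accessory subunit, had 3208, 3262 and 2894 normalized reads in parental cells and 2379, 2577 and 2191 in HRD (-0.39 ± 0.09, adjusted p = 0.0106). AEBP2, another, changed by -0.40 ± 0.10 (adjusted p = 0.0122). In HRA 1 rose, the histone-binding subunit RBBP4 (0.32 ± 0.07, adjusted p = 0.0119). Mediator, of which 27 other genes were tested, had 1 higher in HRD, MED12 (0.31 ± 0.10, adjusted p = 0.0369), and 2 lower, MED22 (-0.54 ± 0.12, adjusted p = 0.00875) and MED21 (-0.40 ± 0.08, adjusted p = 0.00549). In HRA, MED30 (0.50 ± 0.14) and MED26 (0.43 ± 0.12) rose and CCNC (-0.27 ± 0.07) fell. Several of these calls were lost under other settings, while the changes kept their sign. MED12 stayed between 0.21 and 0.40 in HRD, and MED30 between 0.40 and 0.57 in HRA. MED12 lost its call under 10 of the 18 other settings, among them leaving out parental replicate 1 or 2, HRA replicate 1 or 3, or any HRD replicate. The 3 Mediator calls in HRA became 1 without parental replicate 1 and 0 without any other parental replicate or any HRA replicate. RBBP4 lost its call without HRA replicate 1 or 2.

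Of 17 other SWI/SNF genes, 1 fell in HRD, SMARCD1 (-0.31 ± 0.09, adjusted p = 0.0382), and 0 were called in HRA. SMARCD1 lost its call under 10 of the 18 other settings, with adjusted p-values up to 0.262, among them leaving out any parental replicate, HRA replicate 1 or 2, or HRD replicate 2 or 3. With single libraries left out, 0 to 2 of the list were called in HRD and 0 to 2 in HRA. SAGA was split in HRD, with 3 higher and 3 lower of 14, against 10.7% and 12% of all tested genes. ENY2 (0.40 ± 0.07) and USP22 (0.48 ± 0.08), both of its deubiquitinase module, rose, and TAF5L fell (-0.52 ± 0.09). ATXN7L3 of the same module fell too (-0.90 ± 0.09) and itself lies between TAOK1 and UBTF. ENY2 rose in HRA as well (0.71 ± 0.07) and TAF5L fell (-0.47 ± 0.09). Of 5 cyclin and kinase genes related to CDK12, CCNT1 alone was called in HRD (-0.52 ± 0.10, adjusted p = 0.00454).

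Among RAS GTPase-activating genes and SPRED genes, relatives and partners of NF1, RASA3 rose (0.39 ± 0.11) and SPRED1 fell (-0.54 ± 0.11) in HRA. RASA3 lost its call without parental replicate 1 or 2 or HRA replicate 1 or 2. Of 14 tested genes known to respond to ERK signalling, 4 rose in HRD and 1 fell, against 10.7% and 12% of all tested genes. CCND1, cyclin D1, had 60, 117 and 55.5 normalized reads in parental cells, 591, 689 and 368 in HRA and 2342, 2733 and 2010.1 in HRD (4.99 ± 0.28, adjusted p = 5.46e-07). SPRY4, a feedback inhibitor, had 7.86, 11 and 19.5 in parental cells, 3.49, 4.06 and 3.65 in HRA and 110.1, 131 and 107 in HRD (3.17 ± 0.34, adjusted p = 8.69e-05). It fell in HRA (-1.46 ± 0.34), a call lost under 3 of the 18 other settings, among them leaving out HRA replicate 1. Its HRA values rest on few reads, since 3 reads make 2.09 to 4.06 normalized reads in the HRA libraries. The gene that fell in HRD was ETV4 (-0.94 ± 0.08), which lies in the interval, and the other 9 did not pass.

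Among 10 genes known as STAT3 or STAT5 targets, 3 rose in HRD and 1 fell, against 10.7% and 12% of all tested genes. BCL6 had 0.93 ± 0.23, PIM1 0.91 ± 0.24 and MCL1 0.31 ± 0.09, and BCL2L1 fell (-0.42 ± 0.12). The 4 calls became 1 without parental replicate 1 or HRD replicate 2, and 2 without parental replicate 2. BCL2L1 and MCL1 each lost their call under 6 of the 18 other settings, PIM1 under 3 and BCL6 under 2. None of the 10 was called in HRA, where STAT5A rose, or 1 with single libraries left out, and SOCS1, SOCS3 and ID1 did not reach the filter. Retinoid receptors and cofactors had 0 of 8 called in either line. Of 6 tested retinoic acid targets, DHRS9 rose in HRD (2.60 ± 0.27) and HRA (1.66 ± 0.27), and PRAM1 fell in both (-0.80 ± 0.17 and -0.89 ± 0.17).

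Of 8 genes of the BECN1 complex, ATG14 fell in HRD (-0.79 ± 0.18, adjusted p = 0.00872), and PIK3R4 fell in HRA (-0.29 ± 0.09). PIK3R4 lost its call under 10 of the 18 other settings, among them leaving out any parental replicate, HRA replicate 1 or 2, or HRD replicate 3. Of 4 autophagy receptors, SQSTM1 (0.96 ± 0.13, adjusted p = 0.000325) and TAX1BP1 (0.42 ± 0.07, adjusted p = 0.00182) rose in HRD, while NBR1, the member of that family, was lower. TAX1BP1 (0.48 ± 0.07) and TOLLIP (0.49 ± 0.14) rose in HRA, and TOLLIP lost its call without parental replicate 2 or 3 or HRA replicate 1 or 2. Of 8 partners and relatives of LIG3, LIG4 rose in HRD (0.36 ± 0.10), but not without parental replicate 1 or 2 or HRD replicate 1 or 3. In HRA, 3 of these rose, against 9.13% of all tested genes, with POLB (0.55 ± 0.08) and XRCC1 (0.51 ± 0.11) leading. PARP1 (-0.44 ± 0.10) and LIG4 (-0.35 ± 0.10) fell, against 6.1% of all tested genes. These 5 calls became 1 without HRA replicate 2, 2 without HRA replicate 1 or parental replicate 2, and 3 without parental replicate 3. LIG4 lost its HRA call under 7 settings, PARP1 under 4, XRCC1 under 2 and POLB under 0. Of 10 other fatty acid synthesis genes, ACACB, the second acetyl-CoA carboxylase, fell in HRD (-0.56 ± 0.17, adjusted p = 0.033), and ELOVL5 (0.42 ± 0.10) and FADS2 (0.94 ± 0.26) rose in HRA. ACACB lost its call under 7 settings, FADS2 under 6 and ELOVL5 under 4. The HRD count of the list was 0 without parental replicate 3, HRD replicate 2 or HRD replicate 3, and the HRA count was 0 without HRA replicate 1 or 2.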

How the data were processed

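RNA was measured in 9 libraries of HL-60 cells: 3 parental, 3 HRA and 3 HRD, which the labels call biological replicates. Libraries were stranded and made from polyadenylated RNA, per the labels' protocols. Per the submitters' processing notes, the tools were HTSeq 0.11.1, DESeq2, Cufflinks 2.2.1, Picard, TopHat2 2.1.1 and Bowtie2 2.3.5.1, on build hg19. Their roles, the gene annotation and whether strand was used in counting are not given in the sources used here. The authors deposited a normalized signal for 20637 genes: gene counts scaled by 1 size factor per library. In each library 100% of the values were whole multiples of 1 unit (tolerance 0.001), which gave back whole reads, 20822709 to 66563328 per library. A value of 3 reads is 1.49 to 4.52 normalized reads.

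The 12569 genes that reached a value of 10 in 3 or more libraries were fitted as log2(value + 1) in 1 limma 3.58.1 model with trend (R 4.3.3) over all 9 libraries, with Benjamini-Hochberg adjustment over all tested genes and calls below 0.05. Folds on this scale understate changes of genes with low values. The edgeR 4.0.16 and DESeq2 1.42.0 alternatives used the recovered counts. The limma step was tested on simulated data. Other alternatives were pseudocounts of 0.5 and 5, no filter, TMM scaling, a fit of the 2 groups compared, the replicate number as a block, each library left out, and, chosen after seeing the data, replicate 2 of every group left out.

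For libraries with the same number, deviations from the group means of parental and HRA cells correlated at 0.22, 0.38 and 0.14. Those of parental and HRD correlated at -0.08, 0.26 and 0.29, and those of HRA and HRD at -0.03, 0.41 and 0.23. The main fit has no block. In the block alternative the replicate number was fitted over all 9 libraries and for every comparison, although no label names a shared batch.

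Gene order came from the RefSeq coding genes of GRCh38.p14, matched by symbol or unambiguous alias (all 59 members). Its coordinates were not used beside counts made on hg19. By RefSeq, 18 members overlap another coding gene and 12 have pseudogene copies by name, so reads may be shared. The members, the role and partner lists and the rule for named genes were chosen with earlier results of these data known. The rule names 21 fixed members, the 3 lowest and 3 highest in HRD, the 3 with the highest parental mean, members called in HRA, 2 on each side of the HRD call, 6 extreme and 2 fixed non-members in the interval, 3 genes on each side of it, and for each partner list the called genes, or the 2 with the smallest adjusted p in each direction where over 4 were called. Some genes it names are not reported here.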

Additional observations from a re-analysis of the deposited data

How the results depend on the processing

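In 18 alternatives, 0 called results reversed. The number of members called lower in HRD was 50, and 46 to 50 under the alternatives. The median HRD change over members stayed between -0.88 and -0.81, and over members from CRLF3 to UBTF between -0.95 and -0.86. Non-members of the interval called lower numbered 57 to 70 (68 reported), and genes after UBTF 14 to 21 (20 reported). In HRA the 4 member calls became 7 with the replicate block, 7 when only the 2 groups compared were fitted, 1 without replicate 2 of every group, and 1 to 7 when single libraries were left out. The 9 calls among non-members in HRA became 16 with the replicate block, 14 with only the 2 groups, 3 without replicate 2 of every group, and 4 to 13 with single libraries left out. The 2 calls before TAOK1 in HRD became 4 with the replicate block, 1 without replicate 2 of every group, and 0 to 3 with single libraries left out. The 24 partner calls in HRA became 10 without replicate 2 of every group and 9 to 30 with single libraries left out. The 29 partner calls in HRD became 18 without replicate 2 of every group, and 22 to 31 with single libraries left out. The cause of these shifts was not tested beyond the smaller number of samples. Of 168 results of named genes, 115 kept their side of the threshold throughout, 41 lost a call under at least 1 alternative, 12 gained one, and 0 reversed. TMM scaling shifted the median of all genes by -0.000363 in HRD and 0.00764 in HRA. Among members in HRD, ACLY lost its call under 8 alternatives, NSRP1 under 6 and RNF135 under 4.

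Each resistance is 1 line, the drugs were present during culture, and the p-values measure the spread between these replicates. Copy number was not analysed here, and 3 libraries a group limit what small changes can be told from replicate spread.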
